A study of Homo sapiens with 8 samples.

Results

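The genes of the mitochondrial protein import machinery were taken as those with a TOMM or TIMM symbol, with GRPEL1, HSPA9, PMPCA, PMPCB, DNAJC19, SAMM50 and CHCHD4. They cover the TOM complex, the small TIM chaperones, the matrix processing peptidase and part of the TIM23 and TIM22 translocases and the import motor. PAM16, DNAJC15 and ROMO1, listed as motor cofactors, and the TIM22 partner AGK were left to a further list of import genes. The members were chosen by name and role rather than by their values, although earlier results of these data were known. The table held 32 of these genes among 14528 named genes, as 47 of 24812 listed transcripts, and TIMM23B, a near-identical copy of TIMM23, was not analysed here. All 32 had a mean over both conditions of at least 0.5 FPKM (a fragment count scaled to transcript length and to sequencing depth), a limit that 12106 genes passed.

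Poly(A)-selected RNA was sequenced from SQ20B, an established line of head and neck squamous cell carcinoma cells, in 2 conditions. Cells were kept in normoxia, for which the labels name no oxygen level, or in hypoxia, at 0.5% O2 for 16 h. All cells grew in the same glucose-rich medium with serum and carried no stated genetic change. There were 4 biological replicates per condition, and the authors' values were given as 1 FPKM per transcript and condition over those replicates and were summed here per gene, so no spread between replicates, standard error or test stands behind any difference below. The study's methods give a planned and an average read depth, and the fragment count behind each value was not analysed here. The comparison addressed how the transcriptome of these tumour cells differs between low and normal oxygen.

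Mitochondria make only a few of their own proteins, and nearly all the others are translated in the cytosol and imported. Precursors enter through the TOM complex of the outer membrane. From there the TIM23 complex and its ATP-driven motor take proteins with a cleavable presequence into the matrix, the small TIM chaperones and the TIM22 complex take carrier proteins into the inner membrane, the SAM complex inserts barrel-shaped proteins into the outer membrane, and the MIA pathway traps cysteine-rich proteins in the intermembrane space. The whole apparatus is encoded in the nucleus.

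The import genes were lower in hypoxia as a group. Their median log2 change, computed as log2((hypoxia FPKM + 0.1)/(normoxia FPKM + 0.1)), was -0.59, and the changes ran from -1.34 for TIMM10 to -0.05 for TOMM34. All 32 lay below 0 on the deposited scale, against 56.4% of all genes, although TOMM34, TOMM20L, TOMM7 and TIMMDC1 moved above 0 under at least 1 other scaling. A difference of at least 1.5-fold was called, and 17 of the 32 genes were called lower, against 11.2% of all genes. None was called higher, against 9.95% of all genes. The median of all genes was -0.07. Of the 32 genes, 14 lay in the lowest 10% of all changes and 23 in the lowest 25%, and 2 lay above the median of all genes.

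Import genes were more abundant than most. Their median FPKM was 38.5 in normoxia and 29.2 in hypoxia, where that of all genes was 9.27 and 8.87. Abundant genes were more often lower: of the 5811 genes with a mean of at least 10 FPKM, 68.3% lay below 0 and 13.1% were called lower. Among the 24 import genes of that abundance, 13 were called lower and the median was -0.59, against -0.18 for all genes at that level. The 8 less abundant members had a median of -0.62, with 4 called lower. Over the 32 genes of these libraries, the change had a Spearman's rho of -0.0037 with mean FPKM. In bulk RNA, fewer cells of a type and less RNA per cell cannot be told apart, and FPKM gives shares of the sequenced RNA rather than amounts per cell.

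**Figure D1:**
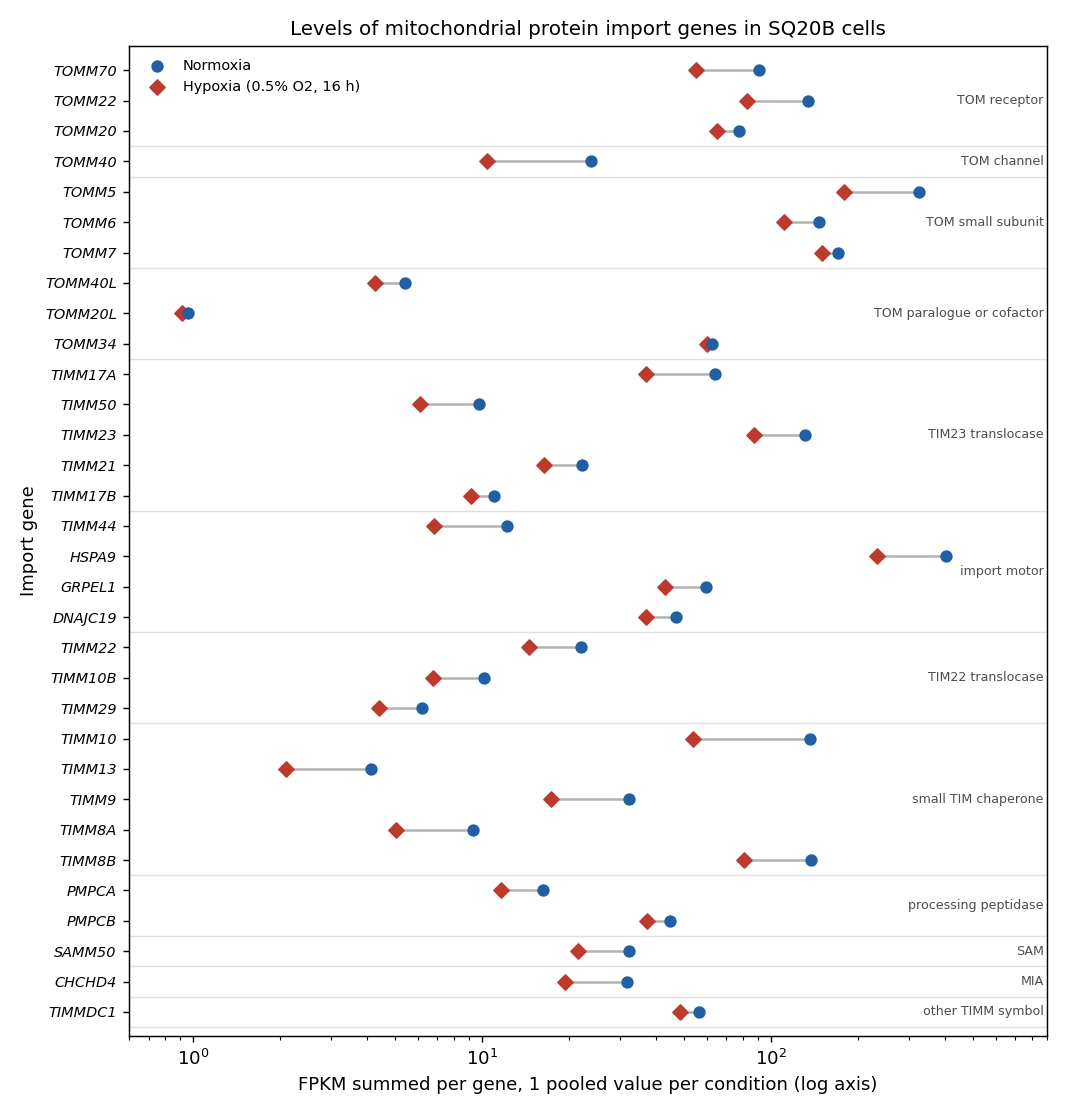
FPKM of the 32 import genes in normoxia (blue circles) and hypoxia (red diamonds), 1 value per gene and condition, on a log axis and grouped by role. All red points lie left of the blue ones on the deposited scale, by the widest distance for TIMM10 (136 to 53.8 FPKM) and by almost none for TOMM34 and TOMM20L, which change side under other scalings, as do TOMM7 and TIMMDC1.

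Summed FPKM put these changes in proportion. The 32 genes together had 2339 FPKM in normoxia and 1517 FPKM in hypoxia, which is 64.9% of the normoxia sum. They made up 0.436% of all listed FPKM in normoxia and 0.331% in hypoxia. By branch, the hypoxia sum was 51.7% of normoxia for the TIM22 complex with the small TIM chaperones, 62.3% for TIM23 with its motor, 67.4% for the TOM complex, and 71.9% for the processing peptidase, SAMM50 and CHCHD4 together. The TOM paralogues, TOMM34 and TIMMDC1 together kept 90.9%. The sum of all listed FPKM was itself 85.5% of normoxia, so the import genes were lower than that shift alone in each branch but the last.

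Upstream sequence is shown for 5 genes, chosen from the 15 with a match to either motif below so as to span the range of changes, since 2 of the factors known for driving nuclear genes of mitochondrial proteins, the ETS-family factor GABP and NRF1, have short recognisable sites. The letters CCGGAAG (an ETS core) and GCGCNNGCGC (the NRF1 palindrome) were searched on both strands, from 250 bases before to 50 after the RefSeq start. The stretches come from RefSeq promoter sequences of GRCh38.p14, run 5′ to 3′ on the gene's strand and lie upstream of the start except for the last 3 bases of TOMM34. Capitals mark an ETS or NRF1 match on either strand. TIMM10 had the largest change of all members, TOMM70 and CHCHD4 were called lower, TIMM29 was not called, and TOMM34 had nearly equal levels.
TIMM10, chr11:57530795-57530864, minus strand: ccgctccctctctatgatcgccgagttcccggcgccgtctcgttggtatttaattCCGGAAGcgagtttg
TOMM70, chr3:100401160-100401229, minus strand: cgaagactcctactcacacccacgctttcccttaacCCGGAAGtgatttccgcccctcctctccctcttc
CHCHD4, chr3:14124931-14124990, minus strand: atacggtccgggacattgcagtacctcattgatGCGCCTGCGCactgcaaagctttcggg
TIMM29, chr19:10928701-10928760, plus strand: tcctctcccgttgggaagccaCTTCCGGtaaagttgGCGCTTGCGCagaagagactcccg
TOMM34, chr20:44960395-44960467, minus strand: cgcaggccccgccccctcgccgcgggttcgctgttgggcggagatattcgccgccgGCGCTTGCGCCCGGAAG

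Of the import genes, 29 had a promoter sequence in the RefSeq table; TOMM5, TIMM8B and GRPEL1 did not. The ETS letters stood in 12 of the 29 (41.4%), against 20.3% of 9671 promoters of genes past the FPKM limit and 10.7% of 27305 promoters in all. They were in 5 of the 15 promoters of genes called lower and in 7 of the 14 of genes not called. The NRF1 letters stood in 6 of 29 (20.7%), in TOMM40, CHCHD4, TIMM29, TOMM20, TOMM7 and TOMM34, against 16.6% and 8.78%. That was 2 of the 15 called lower and 4 of the 14 not called. In TOMM34 the ETS and NRF1 matches abut at the start site, as printed above, and the gene had 62.4 FPKM in normoxia and 60.1 in hypoxia.

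The core of the hypoxia response element, ACGTG, was found in 9 of the 29 promoters (31.0%), against 27.1% of promoters past the limit and 21.6% of all promoters. It was in 6 of the 15 called lower and 3 of the 14 not called. The E-box CACGTG, which contains ACGTG, was found in 4 (13.8%), in TIMM10, TIMM8A, HSPA9 and TOMM20, against 10.1% and 7.43%. These are counts of letters in a window and carry no measurement of binding.

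At the entry gate, the 7 genes of the TOM complex had a median change of -0.69, and 4 were called lower. TOMM40 (chr19:45393826-45406946, plus strand, GRCh37), which forms the pore through which nearly all precursors pass, was at 23.8 FPKM in normoxia and 10.4 in hypoxia (log2 -1.19). It was the least abundant of the 7 and had the largest change among them. Of all genes, 1.396% had a change as low as that of TOMM40 or lower.

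The receptors differed among themselves. TOMM70, the receptor for chaperone-delivered carrier precursors, was at 90.9 FPKM in normoxia and 55.2 in hypoxia (log2 -0.72). TOMM22, the central receptor that also tethers the pore subunits, was at 134 and 82.8 FPKM (-0.69). TOMM20, the receptor for presequences, was at 77.5 and 64.8 FPKM (-0.26) and was not called. TOMM70 was thus the more abundant of the pair in normoxia, with a TOMM70 to TOMM20 ratio of 1.17, and the less abundant in hypoxia, with a ratio of 0.851. Relative to the pore gene, TOMM20 went from 3.25 to 6.26 FPKM per FPKM of TOMM40.

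The small TOM subunits, single-span proteins that help assemble and stabilise the pore, were among the most abundant import genes, with changes from -0.86 to -0.19. TOMM5 was at 326 FPKM in normoxia and 180 in hypoxia (-0.86) and was called lower. TOMM6 was at 147 and 111 FPKM (-0.40). TOMM7 was at 171 and 150 FPKM (-0.19), a change that turned to 0.09 after quantile normalization and to 0.04 with equal FPKM sums. All 637 exonic bases of TOMM6 also lie in another annotated gene on the same strand. For TOMM5, 680 exonic bases lie in other same-strand genes, so fragments of either stretch cannot be assigned to one gene with certainty.

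**Figure D2:**
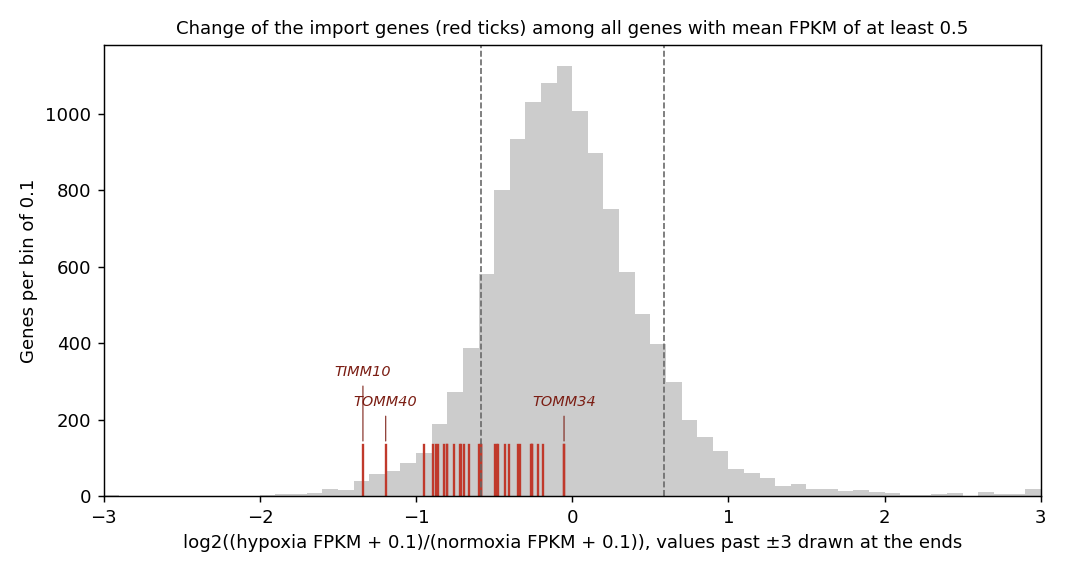
Distribution of log2 changes, hypoxia over normoxia, for the 12106 genes past the FPKM limit (grey bars, 0.1 log2 per bin, with values beyond ±3 in the end bins), with the 32 import genes as red ticks and the 1.5-fold limits as dashed lines. On the deposited scale the ticks all lie left of 0 and 17 lie beyond the lower dashed line, while TOMM34 and TOMM20L sit near the middle of the distribution; these 2, TOMM7 and TIMMDC1 pass 0 under at least 1 other scaling.

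In the TIM23 translocase, which leads presequence proteins through the inner membrane, 3 of the 5 genes taken here were called lower. Their median together was -0.59 over the 5. TIMM17A, which lines the translocation path together with TIMM23, was at 64.2 FPKM in normoxia and 36.8 in hypoxia (-0.80). Its paralogue TIMM17B, which can take its place, was at 10.98 and 9.12 FPKM (-0.27) and was not called. The TIMM17A to TIMM17B ratio was thus 5.84 in normoxia and 4.04 in hypoxia, with TIMM17A the main form in both.

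TIMM23 was at 131 and 87.3 FPKM (-0.59), just past the limit at 1.502-fold lower. TIMM50, the receptor that hands presequences to the channel, was at 9.71 and 6.11 FPKM (-0.66). TIMM21, which connects TIM23 with TOM and with respiratory chain assembly, was at 22.1 and 16.4 FPKM (-0.43).

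The import motor, which pulls chains into the matrix, had a median of -0.64 over the 4 genes taken here, without PAM16 and DNAJC15. HSPA9 (chr5:137889445-137911364, minus strand, GRCh37), the matrix HSP70 that drives the motor and the most abundant import gene, was at 405 FPKM in normoxia and 233 in hypoxia (-0.80). TIMM44, which anchors HSPA9 at the channel, was at 12.2 and 6.83 FPKM (-0.82). Both were called lower. The co-chaperones were not: GRPEL1, the nucleotide exchange factor, was at 59.6 and 42.8 FPKM (-0.48), and DNAJC19, a J-domain partner, was at 46.9 and 36.9 FPKM (-0.35).

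TIMM10B, a small TIM counted here with the TIM22 translocase, was not called (-0.58). The other 5 small TIM chaperones were all called lower, with a median of -0.89 and a range from -1.34 to -0.76. These proteins ferry hydrophobic precursors across the intermembrane space as rings of TIMM9 with TIMM10 or of TIMM8 with TIMM13. TIMM10 (chr11:57295937-57298276, minus strand, GRCh37) was at 136 FPKM in normoxia and 53.8 in hypoxia, 2.53-fold lower (-1.34), and 0.686% of all genes had a change as low or lower. Its ring partner TIMM9 was at 32.2 and 17.3 FPKM (-0.89). TIMM10 exceeded TIMM9 by 4.24-fold in normoxia and 3.12-fold in hypoxia.

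In the second ring, TIMM13 was at 4.12 and 2.08 FPKM (-0.95), TIMM8A, the gene of a deafness-dystonia syndrome, at 9.28 and 5.03 FPKM (-0.87), and TIMM8B at 137 and 80.9 FPKM (-0.76). The level of TIMM8B was 33.3 times that of TIMM13 in normoxia and 38.8 times in hypoxia, and that of TIMM8A was 2.25 and 2.41 times. The partner genes thus differed far more in level than in their change. TIMM9, TIMM13 and TIMM8B share 376, 335 and 351 exonic bases with genes on the opposite strand, and the study's methods describe stranded libraries and default Cufflinks settings without naming a strand setting.

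The 3 genes taken here for the TIM22 translocase, which the small TIM chaperones serve, had smaller changes. TIMM22, its channel, was at 21.9 and 14.5 FPKM (-0.60) and was called lower. TIMM10B, the small TIM that docks on TIMM22, was at 10.1 and 6.74 FPKM (-0.58), and TIMM29, a subunit of the human complex, was at 6.20 and 4.38 FPKM (-0.49). The limit ran through a close series of values: SAMM50 was 1.5001-fold lower and the last gene called, and TIMM10B was 1.496-fold lower and the first not called.

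CHCHD4 (chr3:14153577-14166370, minus strand, GRCh37), the oxidoreductase of the MIA pathway that oxidises cysteines of incoming proteins, was at 31.7 FPKM in normoxia and 19.3 in hypoxia (-0.71). SAMM50, the core of the SAM complex, was at 32.4 and 21.5 FPKM (-0.59). The subunits of the matrix peptidase that removes presequences were not called. PMPCA, which binds the substrate, was at 16.2 and 11.6 FPKM (-0.48), and PMPCB, which carries the catalytic site, was at 44.7 and 37.3 FPKM (-0.26).

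None of the 4 remaining genes was called, and their median was -0.14. TOMM34 (chr20:43570771-43589038, minus strand, GRCh37), a cytosolic co-chaperone that binds HSP70 and HSP90, was at 62.4 FPKM in normoxia and 60.1 in hypoxia (-0.05). TIMMDC1, which despite its symbol is a complex I assembly factor, was at 56.4 and 48.4 FPKM (-0.22). TOMM40L, the pore paralogue, was at 5.38 and 4.26 FPKM (-0.33), and the TOMM40 to TOMM40L ratio was 4.43 in normoxia and 2.43 in hypoxia. TOMM20L, a TOMM20 paralogue and the least abundant member, was at 0.955 and 0.915 FPKM (-0.05), and 174 of its exonic bases overlap TIMM9. With equal FPKM sums the changes of TOMM34, TOMM20L and TIMMDC1 were 0.17, 0.15 and 0.0044.

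Single transcripts mostly shared the direction of the gene sums. Of the 47 transcripts, 43 had a mean of at least 0.5 FPKM, and 41 of these lay below 0 with 20 called lower. Of all 18190 transcripts at that level, 57.4% lay below 0, 14.3% were called lower and 10.5% higher. The 2 exceptions were minor transcripts of DNAJC19: the noncoding NR_033721 was at 0.549 FPKM in normoxia and 0.989 in hypoxia (0.75, called higher), and the coding NM_001190233 was at 0.841 and 0.991 FPKM (0.21). Together they were far below the main DNAJC19 transcript, at 40.7 and 31.2 FPKM. In the 8 genes with more than 1 listed transcript, no transcript changed its share of its gene by 10 percentage points or more. The largest shift, 7.26 points, was in TOMM40L, where the main form went from 68.7% to 75.9%. In TIMM8B the coding form was at 110 and 60.4 FPKM and the noncoding form at 26.9 and 20.5 FPKM, so the noncoding share was 19.6% in normoxia and 25.3% in hypoxia.

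The other genes of the import pathway shifted less by their median. They comprise motor cofactors, the TIM22 partner AGK, SAM and MIA partners, peptidases, insertases and the matrix chaperonin. Of these 23 further import genes past the limit, 6 were called lower and none higher, against 11.2% and 9.95% of all genes. Their median was -0.39. The 6 were DNLZ, a zinc-finger protein that keeps HSPA9 soluble (1.64 and 0.759 FPKM, -1.02), PAM16, the motor subunit that restrains the J-proteins (7.88 and 4.19 FPKM, -0.90), the inner-membrane insertase COX18 (4.50 and 2.63 FPKM, -0.75), the SAM-associated DNAJC11 (18.2 and 10.98 FPKM, -0.72) and MTX1 (7.50 and 4.51 FPKM, -0.72), and the J-protein DNAJC15 (2.60 and 1.58 FPKM, -0.68). ROMO1, a small inner-membrane protein, was the only one of the 23 above 0 on the deposited scale, at 58.3 and 61.9 FPKM (0.09). The matrix chaperonin genes, the most abundant of the list, were not called. HSPD1 was at 759 and 514 FPKM (-0.56) and HSPE1 at 243 and 166 FPKM (-0.54). With equal FPKM sums 14 of the 23 lay below 0, against 36.3% of all genes.

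Genes whose products travel the CHCHD4 route, other than the small TIM chaperones, were described for comparison; complex I genes such as NDUFB10 and NDUFA8 are in this list and in that of complex I. Of 20 such genes, 4 were called lower and 18 lay below 0, against 11.2% and 56.4% of all genes, with a median of -0.28. With equal FPKM sums, 14 lay below 0, against 36.3% of all genes. CHCHD10 was at 30.0 and 12.9 FPKM (-1.21), COA4 at 90.9 and 50.3 FPKM (-0.85), the complex I subunit NDUFB10 at 86.0 and 50.1 FPKM (-0.78) and COA6, a factor of cytochrome oxidase assembly, at 116 and 74.8 FPKM (-0.63). CHCHD4 itself lay at -0.71. Of the 7 genes of MICOS, the complex that shapes the cristae and contacts TOM and SAM, 1 was called lower (14.3%, against 11.2% of all genes). All 7 lay below 0 on the deposited scale and 4 with equal FPKM sums, against 56.4% and 36.3% of all genes. The MICOS median was -0.38. CHCHD3, the gene called, was at 113 and 73.9 FPKM (-0.62), and IMMT was at 83.2 and 82.3 FPKM (-0.01).

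**Figure D3:**
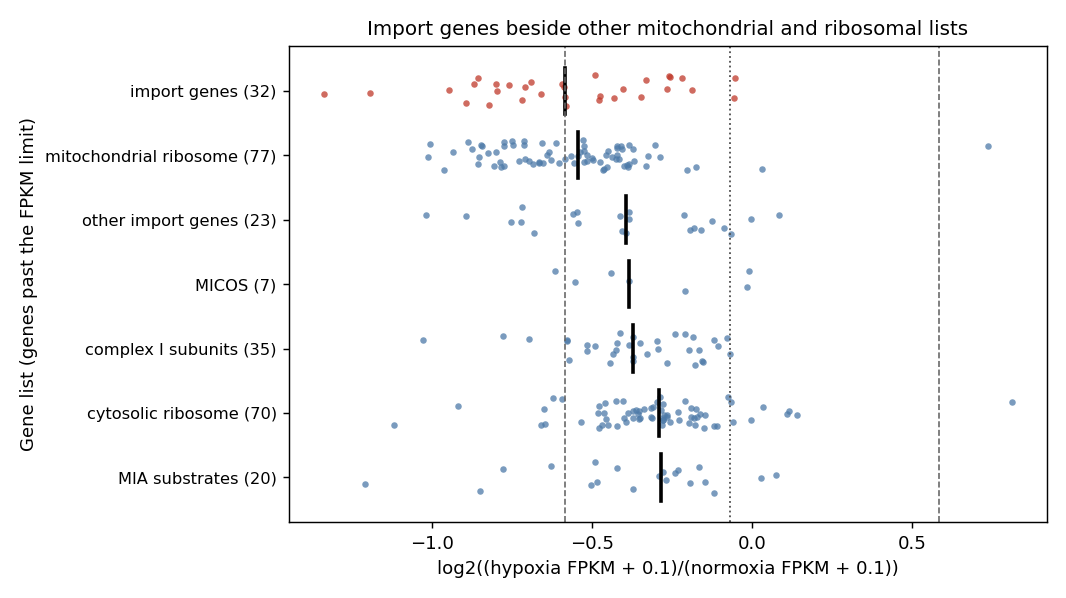
Log2 changes, hypoxia over normoxia, of single genes (points) in the import genes and 6 other lists, with list medians as black bars, the median of all genes as a dotted line and the 1.5-fold limits as dashed lines. The medians were -0.59 for the import genes, -0.54 for the mitochondrial ribosome, -0.39 for other import genes, -0.38 for MICOS, -0.37 for complex I, -0.29 for the cytosolic ribosome and -0.28 for MIA substrates; all lay below that of all genes, -0.07.

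Set beside other large mitochondrial assemblies, the import genes lay close to the mitochondrial ribosome and lower than complex I. Of 77 mitochondrial ribosomal protein genes, 36 were called lower and 1, MRPS6, higher, against 11.2% and 9.95% of all genes, with a median of -0.54. With equal FPKM sums 11 were called lower and the median was -0.32, and after quantile normalization 18 were called lower and the median was -0.39. MRPL41 was at 9.12 and 4.47 FPKM (-1.01) and MRPL3 at 233 and 116 FPKM (-1.01). Of 35 complex I subunit genes, 3 were called lower and none higher, against 11.2% and 9.95% of all genes, with a median of -0.37. The lowest was NDUFS8, an iron-sulfur subunit, at 6.98 and 3.37 FPKM (-1.03). All 35 lay below 0 on the deposited scale, 24 with equal FPKM sums and 23 after quantile normalization. The shares of all genes below 0 were 56.4%, 36.3% and 51.5%. Of 70 genes with a cytosolic ribosomal protein symbol, 7 were called lower and 1 higher, against 11.2% and 9.95% of all genes. Their median was -0.29. The 70 include the like-named RPL7L1, RPL26L1, RPL22L1 and RPS27L, and RPL7L1 (-1.12) and RPL26L1 (-0.66) are among the 7. Under equal FPKM sums and under quantile normalization 2 were called lower, with medians of -0.07 and -0.03. Of all genes, 5.01% and 9.69% were called lower under these scalings, with medians of 0.15 and -0.02. These differences between lists have no test, and all lists share the same libraries.

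Genes that regulate the making of mitochondria were lower too, with a median of -0.78 over 7 genes and 4 called lower, against 11.2% of all genes. Of 8 such genes chosen, 7 were listed. With equal FPKM sums their median was -0.56 and 3 were called lower, against 5.01% of all genes. After quantile normalization it was -0.73 with 4 called lower, against 9.69% of all genes. PPRC1, a coactivator of the PGC-1 family induced by growth signals, was at 4.13 and 1.92 FPKM (-1.07), PPARGC1B, another member of that family, at 0.969 and 0.439 FPKM (-0.99), GABPB1, the activating subunit of GABP, at 49.2 and 26.5 FPKM (-0.89) and the orphan receptor ESRRA at 9.43 and 5.46 FPKM (-0.78). NRF1 was at 5.99 and 4.18 FPKM (-0.51) and TFAM, which packages mitochondrial DNA, at 81.1 and 59.3 FPKM (-0.45). GABPA, the DNA-binding subunit whose ETS letters are printed above, was at 20.4 and 19.0 FPKM (-0.10), and turned above 0 with equal FPKM sums and after quantile normalization. Whether these genes bear on the import genes was not tested.

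As a check of the labels, 10 target genes of hypoxia-inducible factor were chosen, of which 8 were listed. All 8 were called higher, from VEGFA, a vessel growth factor, at 21.3 and 43.2 FPKM (1.02) to CA9, a pH-regulating enzyme, at 0.694 and 21.6 FPKM (4.77). Squamous markers were present, with KRT5 at 398 and 442 FPKM and TP63 at 42.8 and 44.6 FPKM. Of 7 such markers chosen, 6 were listed, without KRT14. Of the 6, 3 lay below 0: KRT6A at 5.10 and 3.26 FPKM (-0.63), DSG3 (-0.36) and SFN (-0.21). Only KRT6A was called. Of 8 markers of leukocytes, endothelium and fibroblasts, 2 were listed: CDH5, an endothelial cadherin, at 4.78 and 2.83 FPKM, and CD68, a macrophage marker also found in tumour lines, at 2.36 and 2.86 FPKM. The other 6 were not analysed here, and the part of other cells in the import gene values was not tested.

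The size of the shift depended on how the conditions were scaled. With the sums of all FPKM set equal, changes shifted up by 0.23, the median of all genes went to 0.15 and that of the import genes to -0.36. Then 7 import genes were called lower (TIMM10, TOMM40, TIMM13, TIMM9, TIMM8A, TOMM5 and TIMM44), against 5.01% of all genes. After quantile normalization 8 were called lower, namely TIMM10, TOMM40, TIMM13, TIMM9, TIMM8A, TIMM44, TIMM17A and TIMM50, against 9.69% of all genes. With the median of all genes set to 0, 14 were called lower, against 8.76% of all genes. The median of the import genes minus that of all genes was -0.52 as deposited, -0.51 with equal sums and -0.46 after quantile normalization. TIMM10, TOMM40, TIMM13, TIMM9, TIMM8A and TIMM44 were called lower under each of these 4 scalings.

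**Figure D4:**
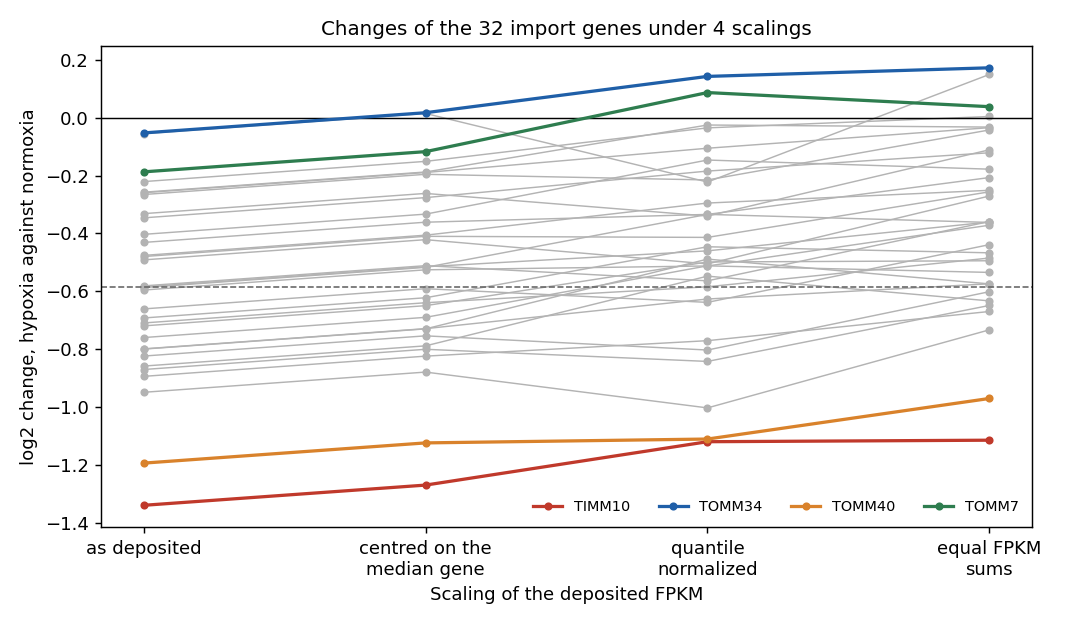
Log2 changes of the 32 import genes (1 line each) as deposited, with the median of all genes set to 0, after quantile normalization and with equal FPKM sums; the dashed line marks 1.5-fold lower. TIMM10 and TOMM40 lie below the dashed line throughout, TOMM34 crosses 0 under all 3 alternatives, and TOMM7 under quantile normalization and equal sums; TOMM20L and TIMMDC1, drawn in grey, also cross 0, TOMM20L in 2 and TIMMDC1 in 1.

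Sequence likeness limits the values of some members. For 12 of the 32 genes the annotation names pseudogenes, 36 in all, with 9 for DNAJC19, 6 for TOMM22 and 4 each for TOMM20 and CHCHD4, and reads shared with them cannot be assigned with certainty. Opposite-strand genes overlap 1400 exonic bases of PMPCB, 798 of TIMMDC1, 663 of TOMM40L and 402 of TIMM17B, all 4 of them not called. They also overlap 376 of TIMM9, 351 of TIMM8B and 335 of TIMM13, which were called lower. Besides TOMM5 and TOMM6, same-strand genes overlap 1294 exonic bases of PMPCB, 396 of TIMM10B, 148 of SAMM50 and 138 of HSPA9. Among the 19 genes left without TIMM23 and the 12 with pseudogenes, the median was -0.49. All 19 lay below 0 on the deposited scale and 8 were called lower, against 56.4% and 11.2% of all genes.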

How the data were processed

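RNA of SQ20B cells (4 replicates per condition) was sequenced from poly(A)-selected, stranded libraries. Per the submitters' processing notes and the study's methods, reads were aligned with STAR 2.3.0.1 to hg19 and quantified against RefSeq transcripts with Cufflinks 2.1.1. The FPKM values deposited by the authors were 1 per transcript and condition, over its replicates. The study's methods give an average depth over samples, and the depth of single samples was not analysed here. The deposited columns of the authors' own comparison (log2 fold change, test statistic, p-value, q-value) were not used.

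Transcript IDs were paired with symbols through RefSeq (24293 of 24812 rows, 97.9%), and FPKM was summed per gene. Changes were taken as log2 ratios after adding 0.1 FPKM, which understates those of low genes. Genes with a mean of at least 0.5 FPKM were kept and 1.5-fold differences called. All planned tests needed replicate values, so none was run. Every member was named with its values, and other genes by list. The members and lists were chosen with earlier results of these data known. Positions are from GENCODE on GRCh37. The scripts (Python 3.11.15, pandas 2.3.3, numpy 2.4.6) were tested on simulated data. Alternatives covered scaling, pseudocount, FPKM limit, fold limit and choice of transcripts.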

Additional observations from a re-analysis of the deposited data

How the results depend on the processing

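With 1 value per condition, no difference here has an error or a test, so how firmly a gene close to the limit is placed on its side was not tested. No paired analysis was possible because the values are pooled over the replicates of each condition, and for the same reason no replicate could be left out. The number of import genes called lower, 17, was 7 with equal FPKM sums and 8 after quantile normalization, where the median went from -0.59 to -0.36 and -0.47 and the genes below 0 from 32 to 28 and 30. With equal FPKM sums 5.01% of all genes were called lower and 18.3% higher, against 11.2% and 9.95% as deposited. Of all genes, 36.3% lay below 0 with equal FPKM sums and 51.5% after quantile normalization, against 56.4% as deposited. A fold limit of 1.2 gave 26 genes called lower (33.0% of all genes) and a fold limit of 2 gave 2, TIMM10 and TOMM40 (2.62% of all genes). An alternative was chosen after seeing the data, without TIMM23 and the members that have an annotated pseudogene. It gave 8 of 19 genes, against 11.2% of all genes. A pseudocount of 1 gave 14 (8.52% of all genes), one of 0.01 gave 18 (11.7%) and median centring gave 14 (8.76%). Dropping the FPKM limit, raising it to 1, using coding transcripts alone or the most abundant transcript of each gene each gave 17. The shares of all genes were 10.3%, 11.8%, 11.4% and 11.8%, in that order. Without the 4 genes outside the import complexes (TOMM20L, TOMM34, TOMM40L and TIMMDC1), 17 of 28 were called lower, against 11.2% of all genes. This alternative was also chosen after seeing the data.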

Other observations

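Before import, cytosolic chaperones keep precursors unfolded, and after it, proteases of the matrix and inner membrane clear misfolded proteins. Of 11 cytosolic handover genes chosen, 10 were listed and 2 were called lower, against 11.2% of all genes. These were DNAJA2, an HSP70 co-chaperone, at 128 FPKM in normoxia and 72.3 in hypoxia (-0.82), and STIP1, which links HSP70 to HSP90, at 312 and 199 FPKM (-0.65). HSP90AA1 was at 595 and 549 FPKM (-0.12) and DNAJB1 lay at -0.14. The median was -0.39, and 10 lay below 0 on the deposited scale, 7 with equal FPKM sums and 6 after quantile normalization. The shares of all genes below 0 were 56.4%, 36.3% and 51.5%.

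Of 9 mitochondrial protease genes, 2 were called lower, against 11.2% of all genes, and the median was -0.30. CLPP, the proteolytic subunit of the ClpXP protease, was at 6.07 and 3.39 FPKM (-0.82), while its unfoldase CLPX was at 35.5 and 35.4 FPKM (-0.0032). PARL, a protease of the inner membrane, was at 40.9 and 26.8 FPKM (-0.61), and LONP1, the main matrix protease, was at 4.07 and 4.17 FPKM (0.03). With equal FPKM sums 5 of the 9 lay below 0, against 36.3% of all genes.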
